A study of Mus musculus with 32 samples.

Results

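In mouse HoxB8 progenitors, 346 H3K4me1 regions were called in every library of the cells with mutant CSF3R and a non-targeting guide. They were called in no library of the control cells or of the cells that carried mutant CSF3R together with an Asxl1 guide. The regions were taken from the 18557 autosomal peaks of the first CSF3R library and make up 1.87% of them. A region had to overlap, by at least 1 bp, a peak in both other CSF3R libraries, and no peak in either control library or in either library of the cells with both changes. The regions were thus chosen by the H3K4me1 peaks of these 7 libraries, whose H3K4me1 is given as a description with no test. The regions amount to 20.2% of the 1717 regions gained with CSF3R, of which 1014 had a peak in both libraries of the cells with both changes and 357 in 1 of them.

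H3K4me1, a single methyl group on lysine 4 of histone H3, is laid down by the Kmt2c and Kmt2d complexes and marks enhancers, active or poised, and the flanks of promoters. Polycomb repressive complex 2 writes H3K27me3 and Polycomb repressive complex 1 writes H2AK119ub, and both marks are linked to gene silencing. Asxl1 is the partner that activates Bap1, the enzyme that removes ubiquitin from H2AK119, and truncated Asxl1 is common in myeloid leukaemia. CSF3R is the receptor for G-CSF, the cytokine of neutrophil production, and CSF3R T618I is an activating form seen in chronic neutrophilic leukaemia.

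The cells were a bone marrow line immortalised with HoxB8, grown with stem cell factor and estrogen and sampled after 48 h without estrogen. Chromatin was profiled by CUT&Tag, in which an antibody-guided transposase cuts DNA beside a histone mark. Control cells had a non-targeting guide and the empty pMICH vector (2 libraries per mark). Asxl1 guide cells had the sgRNA named B2, designed to truncate Asxl1, and the empty vector (3 libraries). CSF3R cells had the non-targeting guide and pMICH-CSF3R-T618I (3 libraries), and double cells had the B2 guide with pMICH-CSF3R-T618I (2 libraries). All groups came from a single line in which CSF3R T618I was overexpressed from a vector, and the labels do not say whether libraries of a group were separate cultures, so p-values measure the spread between libraries, which may be technical.

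H3K4me1 lists held 14479 to 21185 peaks, H3K27me3 lists 6071 to 45373 and H2AK119ub lists 10866 to 33969. The files give peak positions only, so depth is unknown and a region without a peak may hold signal below the caller's threshold. H3K27me3 in Asxl1 guide replicate 2 stood apart, with 53.0 Mb in peaks against 4.73 and 12.4 Mb in replicates 1 and 3. The Asxl1 guide and the vector could not be checked with these marks.

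Neither a genome of the build nor the sequence under the regions was used here, so promoters of nearest genes are shown, from RefSeq on GRCm38.p6, whose coordinates are those of mm10. Each holds the 250 bases before and 50 after the first base of a transcript, 5′ to 3′ on the gene's strand. Capitals mark matches to 1 of 6 short motifs, spelled out further on. The promoters of Ceacam10 (chr7:24776917-24777216, plus strand) and Gimap4 (chr6:48684328-48684627, plus strand) are shown because a start of each gene lay inside one of the regions. Those of Cbx8 (chr11:119040864-119041163, minus strand) and 1700017B05Rik (chr9:57262550-57262849, minus strand) are shown because a region lay 613 and 452 bp from the start and because H2AK119ub covered that neighbourhood.
Ceacam10: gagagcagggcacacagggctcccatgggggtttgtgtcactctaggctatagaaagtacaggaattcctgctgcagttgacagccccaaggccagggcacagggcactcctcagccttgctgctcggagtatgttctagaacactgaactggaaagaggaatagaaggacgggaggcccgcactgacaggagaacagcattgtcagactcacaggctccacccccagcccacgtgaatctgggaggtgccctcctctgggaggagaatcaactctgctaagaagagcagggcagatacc
Gimap4: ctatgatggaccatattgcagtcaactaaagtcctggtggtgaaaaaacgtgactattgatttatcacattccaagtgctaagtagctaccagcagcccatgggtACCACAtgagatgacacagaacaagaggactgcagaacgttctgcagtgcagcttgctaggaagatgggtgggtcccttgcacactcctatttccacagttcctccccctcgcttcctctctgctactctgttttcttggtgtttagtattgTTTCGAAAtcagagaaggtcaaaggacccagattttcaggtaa
Cbx8: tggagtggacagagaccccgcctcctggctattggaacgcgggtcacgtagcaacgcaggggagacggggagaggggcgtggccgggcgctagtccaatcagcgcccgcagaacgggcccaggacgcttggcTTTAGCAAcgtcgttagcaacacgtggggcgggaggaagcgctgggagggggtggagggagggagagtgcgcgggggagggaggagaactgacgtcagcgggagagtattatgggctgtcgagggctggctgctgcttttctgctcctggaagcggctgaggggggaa
1700017B05Rik: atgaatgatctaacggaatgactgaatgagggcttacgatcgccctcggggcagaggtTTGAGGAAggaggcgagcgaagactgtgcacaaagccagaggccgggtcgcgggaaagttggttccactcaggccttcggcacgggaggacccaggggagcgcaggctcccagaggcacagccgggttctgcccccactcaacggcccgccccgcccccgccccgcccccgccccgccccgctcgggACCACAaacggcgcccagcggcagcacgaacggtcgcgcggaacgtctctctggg

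The regions were narrow. Their median width was 400 bp, with quartiles of 300 and 888 bp and a range of 200 to 3550 bp. Of the 346, 209 (60.4%) were 500 bp or less and 13 were wider than 2000 bp. Gained regions that double cells kept had a median of 900 bp and a highest width of 9400 bp, and all peaks of the first CSF3R library a median of 1150 bp. A peak in CSF3R replicate 2 covered at least 50% of 264 regions and a peak in replicate 3 at least 50% of 311. The nearest control peak was a median of 6575 bp away and the nearest double peak 5425 bp away. Within 1 kb, 35 regions had a control peak and 23 a double peak.

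**Figure D1:**
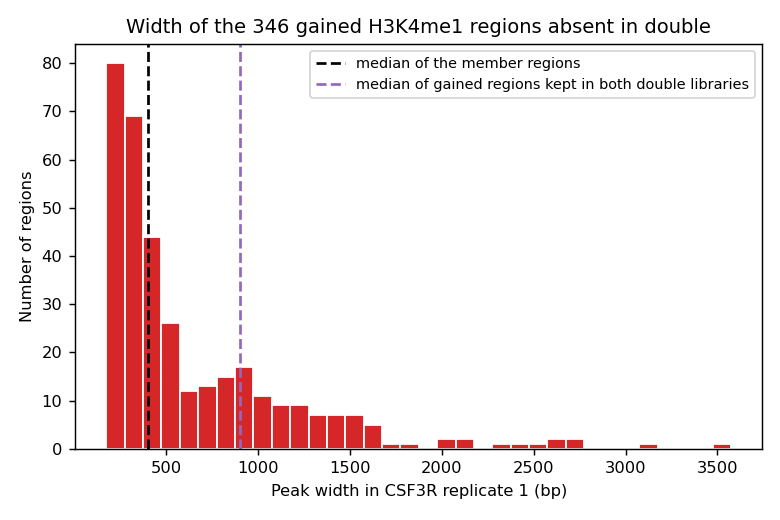
Histogram of peak width in CSF3R replicate 1 (bp, in bins of 100 bp) for the 346 gained H3K4me1 regions absent in double cells, with dashed lines at their median (400 bp) and at the median of the gained regions kept in both double libraries (900 bp). Most regions lie at or below 500 bp, near the narrowest width of 200 bp.

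At the edge of the rule, 13 regions had a control or double peak within 100 bp without overlap, and the closest touched it. Just outside, 574 regions seen in all 3 CSF3R libraries had a peak in 1 of the 4 control and double libraries, and 24 of them shared 100 bp or less with it. Of the 357 gained regions with a peak in 1 double library, 294 had it in double replicate 1, which held 21185 peaks, and 63 in double replicate 2, which held 17174. Without double replicate 1 the rule gave 640 regions, without CSF3R replicate 1, 2 or 3 it gave 733, 704 and 419, and without double replicate 2 it gave 409. Which regions count as absent in double cells thus moved with single libraries.

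The 3 Asxl1 guide libraries took no part in the choice. They had an H3K4me1 peak at 39 (11.3%), 11 (3.18%) and 31 (8.96%) of the regions in replicates 1, 2 and 3. At gained regions that double cells kept, the shares were 19.7%, 6.41% and 16.1% in the same order, and at all regions seen in the 3 CSF3R libraries, which are wider, 83%, 71.2% and 80.2%. The kept regions are also wider. At gained regions with a peak in 1 double library, whose median width was 550 bp, the shares were 12%, 3.36% and 8.12%, close to those of the 346. In all, 292 regions had no peak in any guide library, 32 in 1, 17 in 2 and 5 in all 3.

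Of the 5 regions with a peak in all 3 guide libraries, 1 was wider than 500 bp. That region, chr11:119133001-119134100, lay 8943 bp from Tbc1d16, a Rab GTPase-activating protein, and guide peaks covered 22.7%, 22.7% and 50% of it. The others lay 452 bp from the start of 1700017B05Rik, inside Themis2 (a signalling adaptor of B cells and macrophages), inside AB124611 and inside Arhgap31 (a GTPase-activating protein for Rac and Cdc42).

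Most regions lay away from promoters. Of the 346, 198 were inside a protein-coding gene and 143 touched none, with a median gap of 15179 bp to the nearest gene for the latter. A start is known here for 16457 of 20665 autosomal protein-coding genes and for 258 of the 310 nearest genes. A known start of any protein-coding gene lay within 5 kb of 52 regions (15%), against 18.8% of all peaks of the first CSF3R library. The starts inside a region were those of Ceacam10 and Gimap4, named because the count is small. Ceacam10 encodes a carcinoembryonic antigen-family protein, and its region, chr7:24777001-24777200, was 200 bp wide. Gimap4, a GTPase of lymphocyte survival, had a region of 1550 bp at chr6:48684251-48685800.

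Several genes had more than 1 region. There were 29 genes nearest to 2 or more, holding 65 regions together. Pag1, a membrane adaptor that recruits Csk and restrains Src-family kinases, was nearest to 6. Nrp2 (a semaphorin and VEGF co-receptor), Rbpj (the DNA-binding effector of Notch) and Tbc1d2b (a Rab GTPase-activating protein) had 3 each. Among those with 2 were Rnf144a (a ubiquitin ligase), Defb33 (a beta-defensin), Ccdc57, Cartpt (a neuropeptide precursor), Xylt1 (the enzyme that starts glycosaminoglycan chains) and Tcf20 (a transcriptional coregulator).

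Around Pag1 the regions formed a chain over both sides of the gene's upper end. Inside the gene, regions of 250, 400 and 500 bp began at chr3:9759201, chr3:9786501 and chr3:9793701. Beyond it, regions of 750, 750 and 450 bp began at chr3:9894201, chr3:9896551 and chr3:9913451, 60517, 62867 and 79767 bp from the gene. None of the 3 guide libraries had a peak at any of the 6. For the last 3, the nearest gene of any type was Gm6236, a predicted gene.

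**Figure D2:**
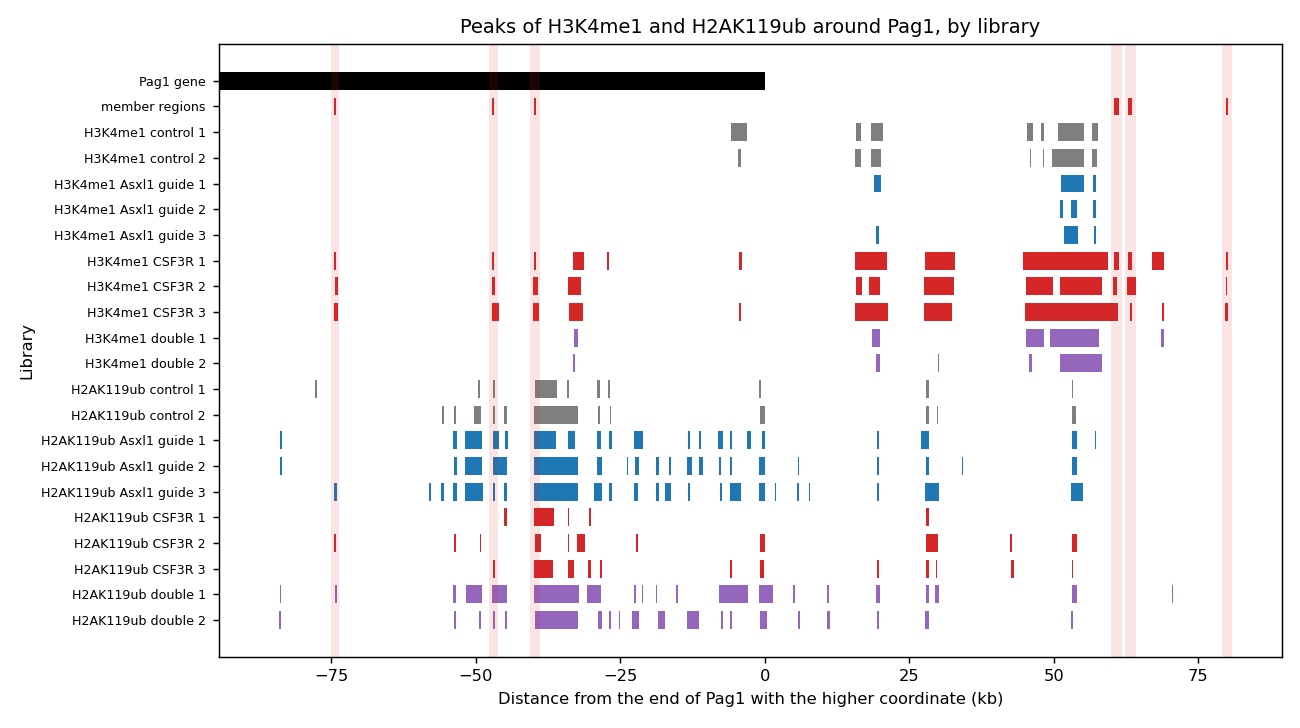
Peaks of H3K4me1 and H2AK119ub in each library around Pag1, by distance in kb from the end of Pag1 with the higher coordinate (the gene runs on past the left edge), with the 6 regions shaded. Shaded columns hold H3K4me1 peaks in all 3 CSF3R libraries and in no control, Asxl1 guide or double library, while H2AK119ub lies around 2 of the regions inside the gene, at most 3.5% of the window around the third, and at most 2% around those beyond it.

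At Nrp2, the 3 regions lay inside the gene, at chr1:62720051-62721750, chr1:62723701-62724700 and chr1:62760101-62760400. CSF3R replicates 2 and 3 covered the first 2 of them entirely. The nearest control peak was 340500 to 379150 bp away and the nearest double peak 28550 to 68600 bp away, so this stretch was empty of H3K4me1 peaks in control cells. At Rbpj, regions of 1050, 800 and 1350 bp lay 45629, 15179 and 11779 bp outside the gene.

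The 8 widest regions lay nearest to Rnf144a (3550 bp, chr12:26373201-26376750), Dpyd (3150 bp), Tbc1d2b and Defb33 (2750 bp each), Ccdc57 (2650 bp), Rap2a (2600 bp), Cartpt (2500 bp) and Tcf20 (2400 bp). Overlap among CSF3R libraries varied between them. The Rnf144a region was covered 80.3% and 83.1% by CSF3R replicates 2 and 3, and the Tcf20 region 4.17% and 8.33%. Dpyd, the first enzyme of pyrimidine breakdown, had the most isolated of the 8, with the nearest control peak 1018900 bp away.

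The regions were also set against lists of blood and chromatin genes. Of 302 genes in 15 lists (granule proteins, myeloid and stem cell factors, JAK-STAT signalling, chemokines, Polycomb and others), 9 were the nearest gene of a region, 1 region each. Those 9 regions are 2.6% of the 346, against 4.44% of all peaks of the first CSF3R library 3.65% of the kept gained regions and 5.6% of the gained regions with a peak in 1 double library. The listed genes are 1.42% of all autosomal protein-coding genes. Gfi1, a repressor needed for neutrophil formation, had a region of 1500 bp at chr5:107733951-107735450, 8146 bp from its start. It was covered 60% and 93.3% by CSF3R replicates 2 and 3. Bcl2l1, the survival factor Bcl-xL and a STAT target, had a region of 250 bp inside the gene, 60589 bp from a start. The stem cell genes Erg (200 bp) and Msi2 (300 bp) each had a region that 2 of 3 guide libraries shared. The others were Ccl4 (a chemokine, 350 bp), Maff (a small Maf factor, 250 bp), F13a1 (a coagulation factor of monocytes, 200 bp), Ceacam10 and Cbx8, a chromodomain subunit of Polycomb repressive complex 1 (300 bp, chr11:119040001-119040300). Of the 15 lists, 7 had no region, among them the primary granule and mature neutrophil lists, which had 24 and 87 of the 18557 peaks. Asxl1 and Csf3r were nearest to no region. The Csf3r window held H3K4me1 in 29.9% and 27.4% in control, 44.5%, 22.4% and 33.4% with the guide, 65.5%, 49.5% and 76% with CSF3R, and 54% and 22.9% in double cells. H2AK119ub there was 2.5% in double replicate 1 and 0% in all other libraries. The Asxl1 window held H3K4me1 in at most 11.3% and no Polycomb peak.

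Polycomb marks were absent around 177 of the 346 regions (51.2%, and also 51.2% of kept gained regions): no H3K27me3 or H2AK119ub peak of any of the 20 libraries lay in the 10 kb centred on them. H3K27me3 was present in at least 1 of 10 libraries around 88 regions (25.4%), against 18.5% of kept gained regions and 9.67% of all peaks of the first CSF3R library. H2AK119ub was present around 155 (44.8%), against 46.2% and 35.6%. Both marks were present around 74 (21.4%), against 15.9% and 7.99%. These shares are a description, and the windows are of equal size in all sets.

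H3K27me3 filled 0.828% and 1.1% of the windows, on average over the 346, in the control libraries. The value was 0.197%, 2.98% and 0.575% in the Asxl1 guide libraries, 1.83%, 2.3% and 2.83% in the CSF3R libraries, and 1.3% and 1.13% in the double libraries. Every CSF3R library was above every control and double library, and guide replicate 2, the library that stood apart, was highest. H2AK119ub filled 3.08% and 3.32% in control, 1.77%, 2.15% and 2.54% with the guide, 2.79%, 4.7% and 3.89% with CSF3R, and 6.12% and 3.4% in double cells. Control, CSF3R and double libraries overlapped, and all guide libraries were below them. The total length of the lists moved the same way: H3K27me3 covered 31.3 to 42.2 Mb in CSF3R libraries and 14.2 to 19.2 Mb in double libraries, and H2AK119ub 11.8 to 16.7 Mb in guide libraries and 18.8 to 39.1 Mb in the others. The part of list length in these means was not tested.

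**Figure D3:**
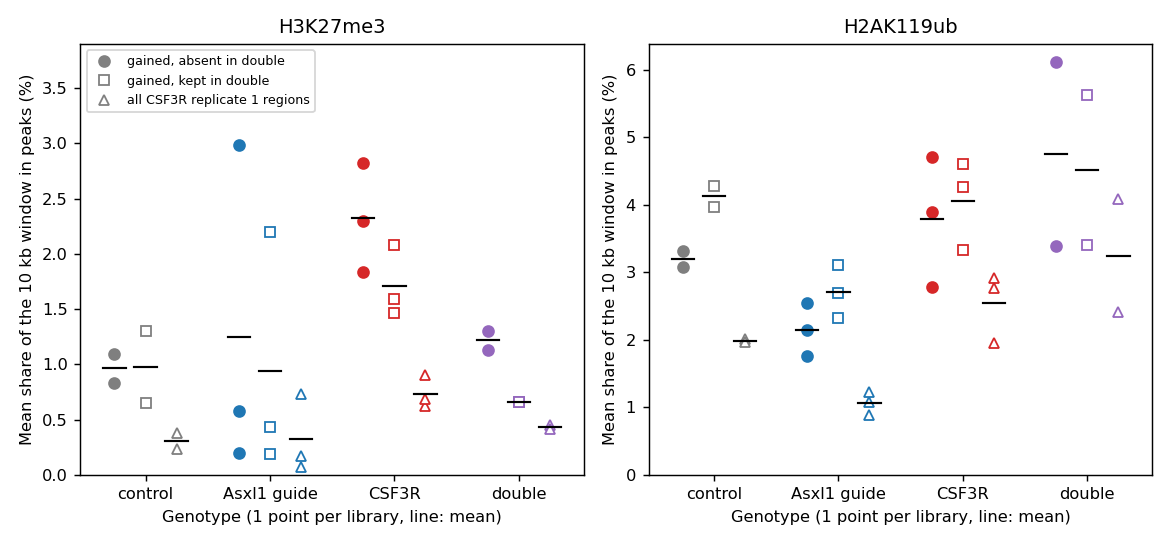
Mean share (%) of the 10 kb window in peaks of H3K27me3 (left) and H2AK119ub (right) for 3 sets of H3K4me1 regions, with 1 point per library and a line at the group mean. For H3K27me3 the CSF3R libraries lie above control and double libraries in each set, and around the 346 regions they reach 1.83% to 2.83%.

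Changes at single windows were tested with limma on the share of each 10 kb window in peaks. Region windows were centred on all peaks of the first CSF3R library, and gene windows on gene starts or, for genes with no known start, on the gene end with the higher coverage. A window entered when at least 2 libraries had at least 0.2 of it in peaks, so few of the 346 regions were tested, and p was adjusted by Benjamini-Hochberg over all windows tested with a threshold of 0.05. The Polycomb libraries took no part in choosing the regions. Some windows entered through 1 group, with fewer than 2 libraries at 0.2 or more outside it: 11 of 31 region and 20 of 63 gene windows for H2AK119ub, and 7 of 15 and 16 of 60 for H3K27me3. A window that entered through the group where it is high had to differ, so counts over the windows tested support nothing about the regions. For such a window, where it is named and except for Stc2, the adjusted p of a fit with no filter is given too. That fit took every window with a peak of the mark in at least 1 library. It brings nearly empty windows into the shared estimate of spread, so its p is no check on how a window entered. Nor does it undo a choice of gene end by coverage. When a control or double library is left out, its group has 1 library, which is assumed to vary like the other groups.

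H2AK119ub rose in double cells around a few regions and nearest genes. Of 31 region windows tested, 5 rose and 1 fell in double against control cells, where 27.3% of all 1151 windows tested rose and 7.65% fell. Against CSF3R cells, 4 of 31 rose and 1 fell, beside 18.8% and 8.25% of all windows. These shares did not stand above those of all windows. At nearest genes, 7 of 63 windows rose and 1 fell in double against control, beside 4.8% and 1.79% of 2794, and 6 rose and none fell in double against CSF3R, beside 3.58% that rose. Single libraries moved these counts. The 5 region calls against CSF3R became 3 without any 1 guide library or double replicate 1, 2 without CSF3R replicate 3, and 8 without CSF3R replicate 2. The 6 against control became 3 without control replicate 2 and 10 without double replicate 2. At nearest genes, the 8 calls against control became 2 without either control library or double replicate 1. The 6 against CSF3R became 3 without either control library, guide replicate 1 or 2, or double replicate 1, and 2 without CSF3R replicate 2 or 3. Covered length was highest in double replicate 1 (39.1 Mb). With it in the fit, 7 nearest genes rose and 6 fell, and 4 regions rose and 4 fell, in double against CSF3R. Shares of all windows in that fit and in the fits without 1 library are not given here. Those counts are therefore not read as a trait of the regions or their genes.

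Smad3, the transcription factor that carries TGF-beta signals to the genome, changed at both kinds of window. Its region, chr9:63735701-63736100, lay inside the gene, 21894 bp from the start. H2AK119ub in the window around that region was 6% and 11% in control, 5.5%, 8% and 0% with the guide, 11.5%, 21% and 17.5% with CSF3R, and 64% and 47% in double cells. Both double libraries were above every other library. The rise was 38.8 ± 5.98 points of the window (SE; limma adjusted p = 0.0022, n = 2 and 3) over CSF3R and 47.0 ± 6.55 over control (limma adjusted p = 0.0013), and both calls passed in each fit without 1 library. The window entered through the double libraries, and with no filter the adjusted p in limma was 0.0034 and 0.0024. The rise over CSF3R did not pass with the peak itself or a 2 kb window.

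The window at the Smad3 start, which does not overlap that one, followed a stepwise order. It held 6% and 9.5% in control, 3%, 4% and 18.5% with the guide, 36%, 39.5% and 46.5% with CSF3R, and 73.5% and 62.5% in double cells. CSF3R libraries were above all control and guide libraries, and double libraries above all CSF3R libraries. The step from control to CSF3R did not pass the threshold in limma. Double exceeded control by 60.3 ± 6.99 points (limma adjusted p = 0.0030) and CSF3R by 27.3 ± 6.38 (limma adjusted p = 0.034). The call over CSF3R was lost without either control library, guide replicate 1 or 2, CSF3R replicate 2 or 3, or double replicate 1 (limma adjusted p up to 0.118).

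Mfsd6 and Rnf144a had H2AK119ub at the gene start in double cells and little elsewhere. Mfsd6 encodes a membrane protein of the transporter superfamily, and its region, chr1:52675101-52676000, lay 51318 bp from the start. H2AK119ub at its start was 8.5% and 3.5% in control, 10.5%, 22% and 19% with the guide, 7%, 7.5% and 3.5% with CSF3R, and 51% and 48.9% in double cells, a rise of 44.0 ± 5.00 points over CSF3R (limma adjusted p = 0.0021). The window entered through the double libraries, and with no filter the adjusted p in limma was 0.0015. The call passed in each fit without 1 library. At Rnf144a, the gene with the widest region, the shares were 5.5% and 3.5%, 3%, 3% and 5.5%, 9%, 14% and 17%, then 59.4% and 36.5% in the same order of groups. Double exceeded CSF3R there by 34.6 ± 6.56 points (limma adjusted p = 0.018), in a window where none but the double libraries reached 0.2. With no filter the adjusted p in limma was 0.026, and the window was not tested without either double library. Around the Rnf144a regions themselves H2AK119ub was at most 3% in any library.

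Igf1r (the insulin-like growth factor receptor) and Nrp2 also rose at the gene start in double against CSF3R cells. The rises were 32.6 and 26.4 points (limma adjusted p = 0.021 and 0.035). Stc2 (a secreted glycoprotein hormone) was also called, with a difference of 29.8 points. Its mean was 40.0% in double cells, with an SD of 21.2 points, and 10.2% in CSF3R cells, with an SD of 4.62 points. At Nrp2 the double libraries held 72.7% and 57.5% and all other libraries 36% to 55.5%, while the 3 regions within the gene had at most 12%. The Igf1r and Stc2 windows entered through the double libraries, and with no filter the Igf1r adjusted p in limma was 0.029. The Stc2 window was tested only because the double libraries were high there, so no p is given and no rise is concluded. The Igf1r call was lost without CSF3R replicate 2 or 3 or either double library. Stc2 and the fit of Nrp2 were named after their values were seen. Arhgap26, which has no known start here, rose at its gene end against control by 41.2 points (limma adjusted p = 0.020), a call lost without either control or either double library.

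Other region windows changed with 1 or both steps. Around the region beside 1700017B05Rik H2AK119ub was 0% and 2% in control, 0% in all guide libraries, 28.5%, 45.5% and 19% with CSF3R, and 63% and 45% in double cells. The rise of 53.0 ± 8.66 points over control in double cells (limma adjusted p = 0.0022) passed in each fit without 1 library. The rise with CSF3R (30 ± 7.91 points, limma adjusted p = 0.047, where 7.82% of all windows rose and 2.09% fell) was lost in 8 of 10 such fits, those without any 1 control, guide or CSF3R library. H2AK119ub fell around the region in Ggt1, the enzyme that cleaves glutathione: 78.3% and 68.8% in control, 46%, 63.8% and 70.5% with the guide, 14%, 46% and 43% with CSF3R, and 17.5% and 11% in double cells. The fall from control to double was 59.3 ± 11.4 points (limma adjusted p = 0.0040), and the call for CSF3R against control (limma adjusted p = 0.048) was lost without any 1 control, guide or CSF3R library.

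Trib1, a pseudokinase that targets C/EBP-alpha for degradation, had 2 regions, and around the one 68852 bp from the gene H2AK119ub was 46% and 29% in double cells and at most 25% elsewhere. It exceeded control by 27 ± 7.13 points (limma adjusted p = 0.017), a call lost without control replicate 2 or double replicate 1. This window entered through the double libraries, and with no filter the adjusted p in limma was 0.035. Its rise over CSF3R (21.2 points, limma adjusted p = 0.040) was lost in 8 of 10 fits, all but those without CSF3R replicate 2 or double replicate 2. Around the region near Ndufa10, a subunit of respiratory complex I, double exceeded control by 50.3 ± 14.0 points (limma adjusted p = 0.022), lost without either control library or double replicate 1. The double libraries lay far apart there, with a mean of 65% and an SD of 36.1 points. Control had a mean of 14.75% and an SD of 8.84 points. Around the region near Ifrd1, a transcriptional coregulator, double exceeded CSF3R by 36.5 ± 10.1 points (limma adjusted p = 0.026), lost without CSF3R replicate 1 or 3 or double replicate 1.

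H2AK119ub fell in double against CSF3R around the region in Rab11fip5, a Rab11 effector of vesicle recycling (chr6:85339301-85339550, 2928 bp from the microRNA gene Mir705). It was 37%, 43.5% and 22.5% with CSF3R, 16.5% and 0% in double cells, 15.5% and 19.5% in control, and 3.5%, 0% and 5.5% with the guide. The fall of 26.1 ± 7.08 points (limma adjusted p = 0.025) was lost without CSF3R replicate 1 or 2 or double replicate 2. The window entered through the CSF3R libraries, and with no filter the adjusted p in limma was 0.049. At the Pag1 region beginning at chr3:9793701 H2AK119ub was 35%, 10.5% and 33% with CSF3R and 54.5% and 51.5% in double cells, with 38% and 54% in control. That rise of 26.8 points (limma adjusted p = 0.042) was lost without any 1 guide library, CSF3R replicate 2 or 3 or either double library, and it turned to -24.7 without peaks that overlap IgG. At the start of Wipf1, a partner of the Wiskott-Aldrich protein in actin assembly, H2AK119ub fell from 48% and 49.1% in control to 19% and 14% in double cells, where it fell by 32.1 points (limma adjusted p = 0.044). The Wipf1 call was lost without either control or either double library, guide replicate 2, or CSF3R replicate 1 or 3. For CSF3R against control none of the 63 nearest-gene windows passed in limma, and 0.107% of all 2794 did. An unadjusted limma p under 0.05 was found for 11 of the 63. The share of all 2794 with such a p is not given here, so that count is not read as a trait of the 63.

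H3K27me3 fell in double against CSF3R cells at some of the nearest genes and rose with CSF3R at 1. Of 60 nearest-gene windows, 1 rose in CSF3R against control, beside 2.73% of all 3402, and 14 fell in double against CSF3R, beside 22.8%, a share near that of all genes. With the covered length of each list in the fit, 15 of the 60 fell and 4 rose. No nearest gene passed for double against control, and neither did any of the 3402 windows (0% called; 315 windows and 6 nearest genes had an unadjusted p under 0.05 in limma). The count of 14 was 0 without CSF3R replicate 2 or 3 or either double library, 4 without CSF3R replicate 1, 5 without either control library and 7 without guide replicate 3. Without guide replicate 2, the library of 53.0 Mb, 31 fell and 3 rose, and 21 rose and 1 fell in CSF3R against control. Shares of all windows in these refits, and in the fit with covered length, are not given here. The counts are therefore not read as a trait of the nearest genes.

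The nearest gene that rose was Trak1, a kinesin adaptor that moves mitochondria, with 2 regions, 1 of them at chr9:121419901-121420950. H3K27me3 at its start was 0% in both control and all guide libraries, 35.5%, 31.5% and 33% with CSF3R, and 6% and 0% in double cells. The CSF3R libraries stood clear of all others. The rise was 33.3 ± 6.87 points (limma adjusted p = 0.035), a call lost without any 1 library other than guide replicates 1 and 2. None but the CSF3R libraries reached 0.2 here, so the window entered through them, and with no filter the adjusted p in limma was 9.2e-04 for the rise and 0.0012 for the fall. The fall in double cells was 30.3 ± 6.87 points (limma adjusted p = 0.022), lost without CSF3R replicate 2 or 3 or either double library. Around the Trak1 regions themselves no library had an H3K27me3 peak.

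Tbc1d16, Amer2 and Zhx2 fell in double against CSF3R as well. The windows of Tbc1d16 and Zhx2, which have no known start here, lie at a gene end. At Tbc1d16 H3K27me3 was 32.5%, 39% and 53.5% with CSF3R and 0% and 4% in double cells, with 0% and 16% in control (a fall of 39.7 ± 8.69 points, limma adjusted p = 0.019). Amer2, a Wnt regulator, fell by 46.6 ± 10.5 points (limma adjusted p = 0.021) and Zhx2, a zinc-finger repressor, by 30.3 ± 7.22 (limma adjusted p = 0.024). The 3 calls were lost without CSF3R replicate 2 or 3 or either double library, and that of Amer2 also without CSF3R replicate 1. The windows of Tbc1d16 and Zhx2 entered through the CSF3R libraries, and with no filter the adjusted p in limma was 0.016 and 0.0039. Of the 14 genes that fell, 6 entered that way. The other 10 genes that fell did so by 25.5 to 65.3 points.

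Of 15 region windows tested for H3K27me3, 2 rose in CSF3R against control, beside 25.4% of all 280, and 3 fell in double against CSF3R, beside 27.1%. Without guide replicate 2 these counts were 6 and 7, without CSF3R replicate 3 or either double library both were 0, without either control library or guide replicate 3 the first was 0, without CSF3R replicate 2 they were 1 and 0, and without CSF3R replicate 1 they were 1 and 2. Shares of all windows in those refits are not given here, so the moved counts are not read as a trait of the regions. In the main fit none passed for double against control, beside 6.43% in either direction. None of the 15 had an unadjusted p under 0.05 in limma. Around the region 52278 bp from Kdm7a, a demethylase of repressive histone marks, the shares were 28.8% and 32.8% in control, 11.5%, 41.5% and 13% with the guide, 60%, 63% and 63.5% with CSF3R, and 34.8% and 16.5% in double cells. The rise was 31.4 ± 9.42 points (limma adjusted p = 0.040) and the fall 36.5 ± 9.42 (limma adjusted p = 0.023). The fall was lost without CSF3R replicate 2 or 3 or either double library, and the rise also without CSF3R replicate 1, either control library or guide replicate 3. Around the region near Ccl2, the monocyte chemokine, the rise was 38.1 ± 10.8 points (limma adjusted p = 0.037), from 12.5% and 11% to 48.5%, 38.8% and 62.3%, and double cells held 37.5% and 19.5%. It was lost without either control or either double library, CSF3R replicate 1 or 3, or guide replicate 3, and without peaks that overlap IgG. Around the region in Slc37a3, a sugar-phosphate transporter family member, the fall in double was 47.0 ± 13.9 points (limma adjusted p = 0.032), lost without any 1 CSF3R or double library. Around that in Mak, a kinase of ciliated and germ cells, it was 18.5 ± 4.73 points (limma adjusted p = 0.022), lost without either double library. The Mak window entered through 2 CSF3R libraries and was tested in 8 of the 10 fits without 1 library, and with no filter the adjusted p in limma was 0.0027. With no filter these calls did not pass: Kdm7a, Ccl2 and Slc37a3 for H3K27me3, and for H2AK119ub those of 1700017B05Rik and Ggt1 in CSF3R against control, Pag1, Ifrd1, Ndufa10, Wipf1 and Trib1 in double against CSF3R (limma adjusted p from 0.052 to 0.20).

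**Figure D4:**
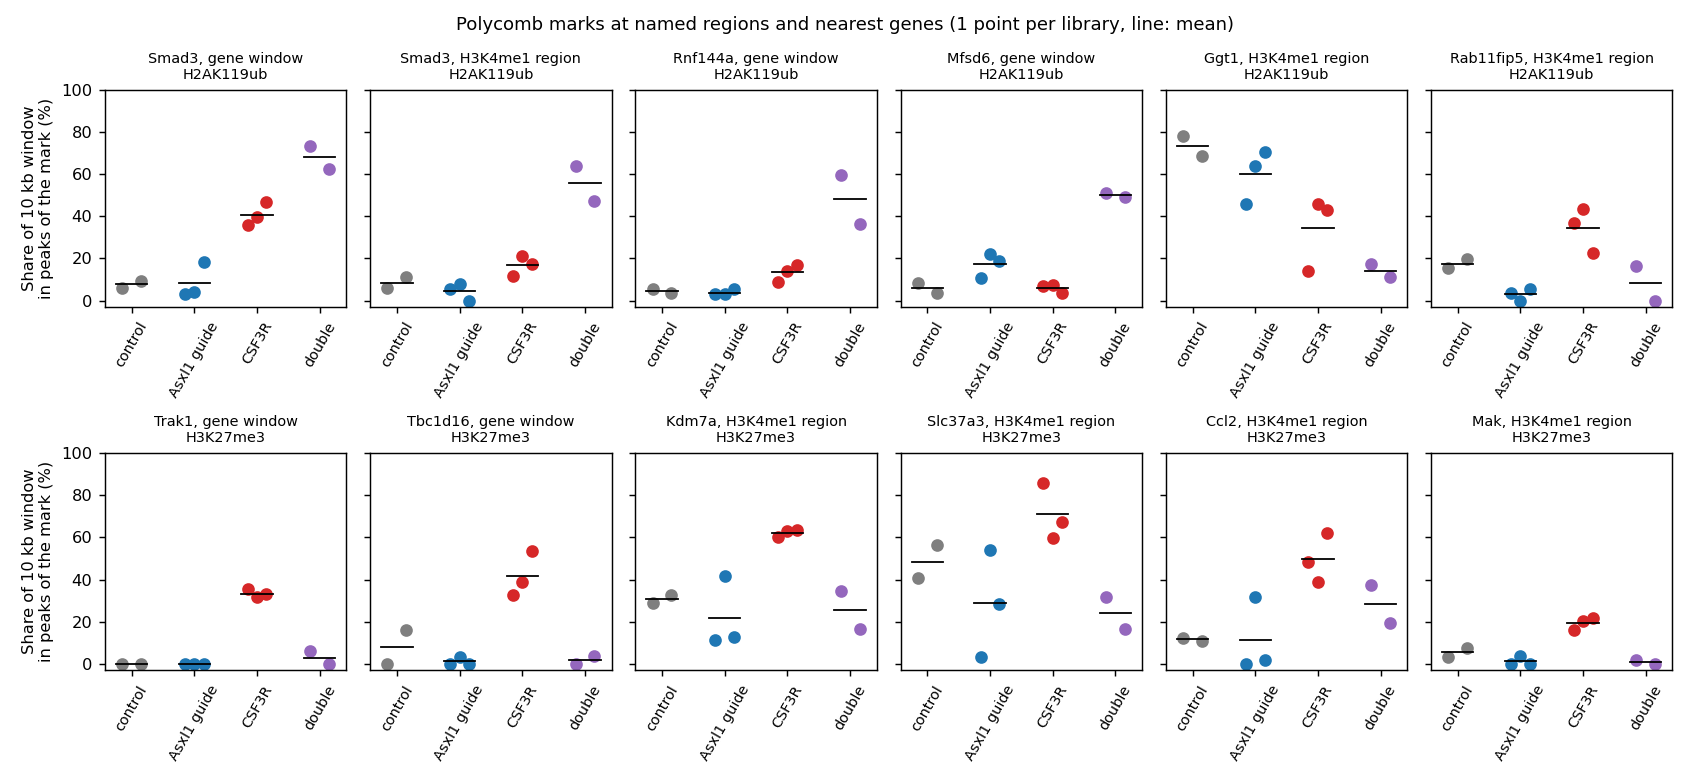
Share (%) of the 10 kb window in peaks of H2AK119ub (top row) and H3K27me3 (bottom row) at named gene windows and H3K4me1 regions, with 1 point per library and a line at the group mean. H2AK119ub in both Smad3 windows, Rnf144a and Mfsd6 is highest in the 2 double libraries, and H3K27me3 in the bottom row is higher in the 3 CSF3R libraries than in the 2 double libraries.

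The most Polycomb-covered regions carried a mark in every library in some cases. Around the Cbx8 region H3K27me3 ranged from 12.5% to 53% and H2AK119ub from 17% to 64% over 10 libraries each, and guide replicate 1 was the lowest in both. Around the region 2233 bp from Gimap6, a further lymphocyte GTPase, H2AK119ub ranged from 21% to 89%. Around that in Traf1, an adaptor of TNF receptors, it ranged from 33.3% to 75.3%. Around the region in Nnmt, nicotinamide N-methyltransferase, H3K27me3 was 57.5%, 69% and 75.3% with CSF3R and 31.5% and 3.5% in double cells, with 16% and 57% in control, and H2AK119ub was at most 14%. In contrast, around the Gfi1, Maff and Ccl4 regions and the 3 Tbc1d2b regions none of the 20 Polycomb libraries had a peak.

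A mark that appeared where H3K4me1 was absent was rare. H2AK119ub lay in the windows of 9 regions (2.6%) in both double libraries and in no CSF3R library, against 3.85% of kept gained regions and 3.39% of all peaks of the first CSF3R library. The reverse held for 3 (0.867%), against 0.592% of kept gained regions and 0.604% of all regions seen in the 3 CSF3R libraries. H3K27me3 lay in 4 windows (1.16%) in both double libraries and no CSF3R library. The share was 0.296% of kept regions and 0.524% of all regions seen in the 3 CSF3R libraries. In 4 (1.16%) it was the other way round, against 2.37% and 0.692%. The 4 regions with H3K27me3 in double cells, named after their values were seen, were nearest to Mfsd6, Zfp236 and, for 2 of them, Pag1. The windows of those 2 Pag1 regions overlap, so they are not separate sites. In double cells H3K27me3 filled 3% and 2% of the Mfsd6 window and 3.5% and 2% of the Zfp236 window. Around the Pag1 region beginning at chr3:9786501 it filled 2% and 12%. At the Pag1 region beginning at chr3:9793701 it filled 6.5% and 26% in double cells and 9%, 49% and 39% with the guide, with none in control or CSF3R libraries. H3K27me3 was in all CSF3R libraries and no control library around 12 regions (3.47%), against 1.09% of kept gained regions and 1.12% of all peaks of the first CSF3R library. The opposite was seen around 0, against 0.099% and 0.027%.

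The 6 motifs were counted in the promoters of the 258 nearest genes and of all 16457 genes with a known start, as a description. The motifs were searched on both strands in the 300 bases printed above for 4 genes, and matches could overlap. TTCNNNGAA (STAT) was in 10.9% of nearest genes and 9.05% of all, AGGAAGT (ETS and PU.1) in 12% and 10.4%, TTNCNNAA (C/EBP) in 38.8% and 41.1%, TGTGGT (RUNX) in 18.6% and 17%, TGANTCA (AP-1) in 8.14% and 8.23% and AGATAA, the letters searched for the GATA factors, in 10.1% and 11.2%. For 48 of the nearest genes, the gene's own start lay within 5 kb of its region. Among them the shares were 22.9% (11 genes) for STAT, 12.5% for ETS and PU.1 and 45.8% for C/EBP. They were 16.7% for RUNX, 10.4% for AP-1 and 18.8% for the GATA factors. The promoters shown hold matches to C/EBP (Gimap4, Cbx8 and 1700017B05Rik) and RUNX (Gimap4 and 1700017B05Rik), and that of Ceacam10 holds none. A match here is a string of letters and not a bound site. With genes of all types, the nearest gene was the same for 241 regions and a non-coding one for 105, of which 76 were lncRNA genes. A microRNA gene lay within 10 kb of 3 regions: Mir330 at 915 bp from the region near Eml2, Mir705 at Rab11fip5, and Mir5104 at 7477 bp from the region near Zc3h12d. IgG peaks overlapped 8 of the 346 regions (2.31%), against 5.23% of kept gained regions and 8.6% of all peaks of the first CSF3R library.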

How the data were processed

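The authors deposited peak positions in bp, of a kind other than counts or signal, for 30 mark libraries and 1 list from 2 IgG samples. Per the submitters' processing notes, Bowtie2 2.4.1, deepTools 3.5 and mm10 were used; the peak caller is not given in the sources used here. Widths were multiples of 50 bp. The members, lists and tests were chosen with earlier results of these data known.

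Positions are 1-based mm10. Nearest genes were protein-coding genes of RefSeq GRCm38.p6. Shares of 10 kb windows in peaks were fitted with limma 3.58.1 (R 4.3.3), 1 mean for each of 4 groups, 2-sided, and checked on simulated data. Other work used Python 3.11.15, numpy 2.4.6, pandas 2.3.3 and matplotlib 3.10.9. Both Polycomb marks were also tested for the interaction of guide and CSF3R. Alternatives were other overlap rules, windows, filters, covered length, a replicate block and leaving out each library. Same-numbered libraries did not deviate together (correlations from -0.285 to 0.344), so numbers were not treated as pairs.

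Named were the 8 widest regions, listed genes, up to 10 genes with several regions, up to 4 calls per direction by adjusted p, the 4 most covered regions per mark, regions with a peak in all guide libraries, and Asxl1 and Csf3r; some further calls were named after their values were seen. Gm and Rik symbols were left out except where a count was 5 or fewer.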

Additional observations from a re-analysis of the deposited data

Results flagged for a closer look

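H2AK119ub in the 10 kb around the Smad3 region changed more with the Asxl1 guide in cells with CSF3R T618I than in cells without it. The difference between the guide's changes was 42.8 points of the window (limma interaction, adjusted p = 0.0172). The mean was 4.5% with the guide and 8.5% in control cells, and 55.5% in double and 16.7% in CSF3R cells. Both double libraries lay above all 8 others. The window entered the test through the double libraries, and with no filter on low coverage the adjusted p in limma was 0.019. The call was lost without control replicate 1 or 2, guide replicate 2 or double replicate 1 (adjusted p up to 0.103), with covered length in the fit (33 points, adjusted p = 0.13), and with the peak itself or a 2 kb window. Among the windows tested, 31 regions and 63 nearest genes for H2AK119ub and 15 and 60 for H3K27me3, no other passed this test. How many of all windows tested passed it is not given here. The call is therefore not read as rare or as a trait of the regions.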

How the results depend on the processing

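The rule gave 333 regions with at least 0.5 of the shorter peak shared, 336 and 299 from CSF3R replicates 2 and 3, and 330 without 200 bp peaks. It gave 338 without IgG overlap, 297 with a 1 kb margin, and 409 to 733 without 1 library. The regions themselves moved more than some counts. Shared with the main set were 306 with at least 0.5 of the shorter peak, 289 and 268 from CSF3R replicates 2 and 3, and 277 without 200 bp peaks. Without CSF3R replicate 1, 289 were shared. Members called changed as follows, with the range without 1 library last. Shares of all windows in the same fits are not given here, so these counts show how the calls moved and no trait of the regions. H3K27me3 regions, CSF3R against control (2): 1 in 2 kb, 5 by any overlap, 0 without IgG-overlapping peaks, 0 to 6. H3K27me3 regions, double against CSF3R (3): 6 with no filter, 1 in 2 kb, 0 to 7. H3K27me3 regions, double against control (0): 3 with no filter, 3 on the peak itself, 1 in 2 kb, 7 by any overlap, 0 to 0. H3K27me3 genes, CSF3R against control (1): 4 with no filter, 2 in 2 kb, 7 by any overlap, 8 with covered length, 0 to 22. H3K27me3 genes, double against CSF3R (14): 4 by any overlap, 7 without IgG-overlapping peaks, 0 to 34. H3K27me3 genes, double against control (0): 3 in 2 kb, 7 by any overlap, 7 with covered length, 0 to 6. H2AK119ub regions, CSF3R against control (2): 1 in 2 kb, 0 without IgG-overlapping peaks, 1 with covered length, 0 to 2. H2AK119ub regions, double against CSF3R (5): 14 with no filter, 2 on the peak itself, 3 in 2 kb, 8 by any overlap, 3 without IgG-overlapping peaks, 8 with covered length, 2 to 8. H2AK119ub regions, double against control (6): 17 with no filter, 3 in 2 kb, 10 by any overlap, 2 without IgG-overlapping peaks, 3 to 10. H2AK119ub genes, CSF3R against control (0): 4 with no filter, 2 in 2 kb, 5 by any overlap, 0 to 3. H2AK119ub genes, double against CSF3R (6): 11 with no filter, 3 by any overlap, 13 with covered length, 2 to 9. H2AK119ub genes, double against control (8): 3 without IgG-overlapping peaks, 2 to 11. A replicate block, although numbers did not pair libraries, left 0 calls in the first 2 H3K27me3 region and gene comparisons, 0, 2 and 5 for H2AK119ub regions and 0, 1 and 5 for H2AK119ub genes. Of 503 refits of the 32 named calls, 283 kept the call, 219 lost it, and 1 turned, that of the Pag1 region beginning at 9793701, to -24.667 without IgG-overlapping peaks. The causes were not tested. Depth is unknown, so a missing peak bounds no level.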
